A study of Homo sapiens with 6 samples.

Results

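The genes described are 6 ligands of the EGF receptor family (AREG, EREG, HBEGF, TGFA, BTC and EPGN) and 3 of its receptors (EGFR, ERBB2 and ERBB3). They were matched by gene symbol, and all 9 were found among the 58735 genes of the deposited table. The cells were KYSE30, an established line from a human oesophageal squamous cell carcinoma, grown in serum-containing medium. They had been transfected with 100 nM of the control siRNA si-NC, of si-RAB23-1 or of si-RAB23-9, the last 2 directed against RAB23, a small GTPase of membrane traffic. Each of the 3 groups holds 2 libraries of total RNA, which are not stated to come from separate cultures. The p-values therefore rest on a spread that may be technical. The study asked which transcripts change when RAB23 is lowered, with si-NC as the reference.

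The ligands of this family are made as membrane-bound precursors and are released by proteases, chiefly ADAM17 and ADAM10. The soluble factor binds a receptor on the same or a neighbouring cell, the receptors pair, and their kinase domains start the RAS-ERK and PI3K-AKT cascades. ERBB2 has no known ligand of its own and serves as a partner, and ERBB3 has a weak kinase and signals through its partners. Squamous epithelium depends on this pathway for growth and wound repair, and EGFR is often abundant in squamous carcinomas.

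Levels are in FPKM, a fragment count corrected for library depth and for the length listed for the gene. That length was 1648 bases for AREG and 10321 for ERBB2. The lengths of the transcripts present in these cells were not measured, so orders and ratios between different genes are approximate. Whole reads per gene could be recovered from the table and came to between 17211025 and 24178125 per library. RAB23 itself stood at 3.27 and 3.33 FPKM in the control libraries. Under si-RAB23-1 it was 1.03 and 1.10 and under si-RAB23-9 1.18 and 1.27, so the knockdown was seen in each treated library. Of 8 squamous epithelial markers 7 had a mean of at least 1 FPKM, but KRT5, which encodes a basal keratin, lay between 0.0394 and 0.272 FPKM. Summed, these markers came to 391.4 and 406.5 FPKM in the control, 445.8 and 451.4 under si-RAB23-1 and 371.2 and 374.5 under si-RAB23-9. Most of this sum was SFN, at 0.986 and 0.874 times its control mean under si-RAB23-1 and si-RAB23-9. The other markers above 1 FPKM moved more: under si-RAB23-1 KRT6A was at 2.32 times the control, DSG3 at 1.98, KRT17 at 1.51, PERP at 1.49, KRT14 at 1.44 and TP63 at 1.34. Under si-RAB23-9 KRT14 was at 1.41, KRT6A at 1.34, PERP at 1.18, DSG3 at 1.02, KRT17 at 0.944 and TP63 at 0.812 times the control. These markers thus differed beside AREG and EREG, by ratios of similar size for KRT6A and DSG3 under si-RAB23-1, and their part in the results was not tested. Fibroblast markers summed to 3.44 to 3.92 FPKM, nearly all of it COL1A1, with COL1A2, DCN and LUM at 0. Leukocyte and columnar markers each stayed under 1 FPKM in sum. The 4 endothelial markers summed to 3.77 and 3.79 FPKM in the control, 1.62 and 2.09 under si-RAB23-1 and 2.73 and 3.16 under si-RAB23-9. Nearly all of that was CDH5, with KDR at 0, and its part in the results below was not tested. In bulk RNA, fewer cells of a type and less transcript per cell cannot be told apart.

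In control cells EGFR had the highest FPKM of the 9 genes and AREG the highest of the ligands. EGFR stood at 162.8 and 162.1 FPKM, above 98.8% of the 14352 genes tested. AREG followed at 54.5 and 52.4 FPKM, above 94.9% of genes, and TGFA at 18.9 and 18.6. ERBB2 (15.0 and 15.8), ERBB3 (10.6 and 10.8) and EREG (8.43 and 8.85) formed the middle of the order. At its lower end were EPGN (5.13 and 4.79), HBEGF (2.21 and 2.37) and BTC (1.13 and 1.13). No neighbours in this order overlapped between the si-NC libraries. With si-RAB23-1 EREG moved up into the range of ERBB2, and with si-RAB23-9 the ranges of ERBB2 and TGFA overlapped.

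**Figure D1:**
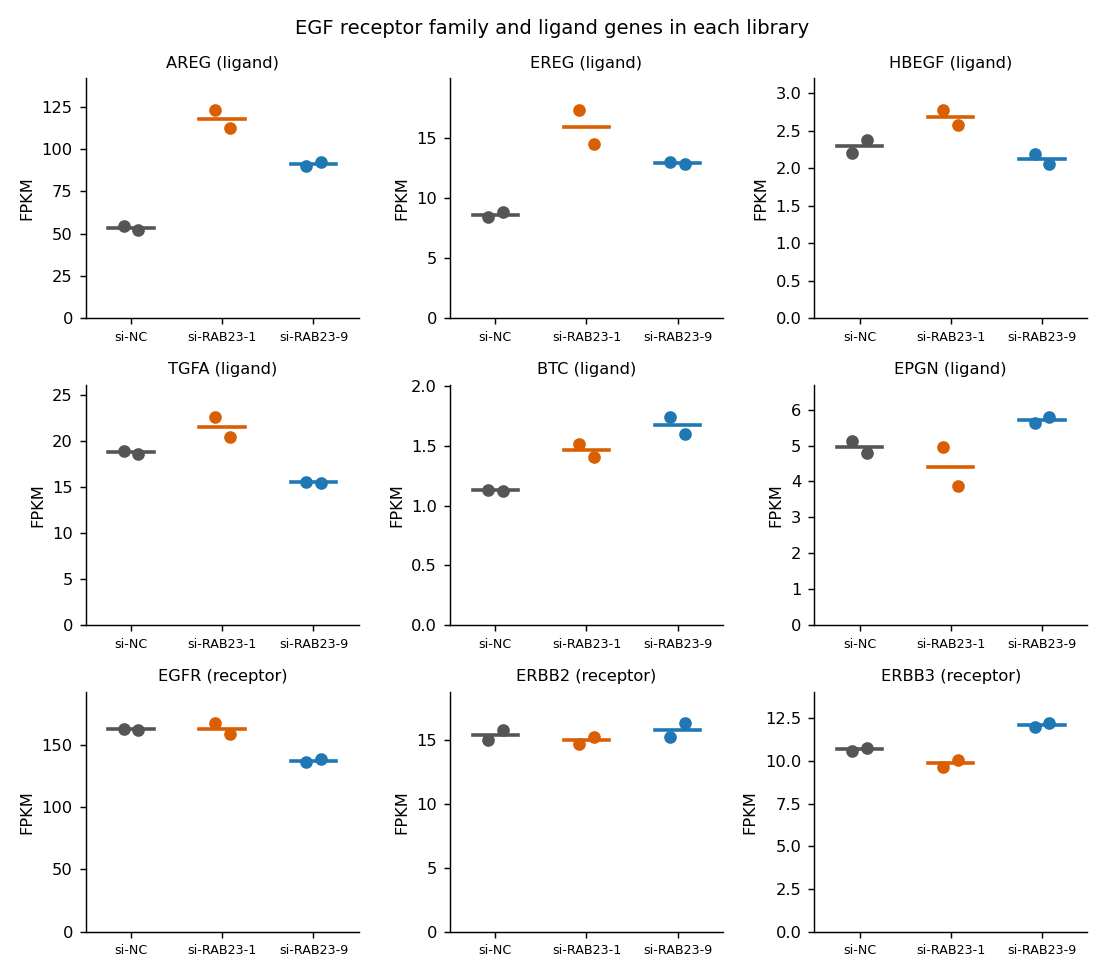
FPKM of the 9 genes in each of the 6 libraries (points) with the mean of each group (lines); every vertical axis starts at 0 and has its own scale. AREG and EREG are higher in all 4 treated libraries than in either control library, and EGFR and TGFA are lowest with si-RAB23-9.

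AREG and EREG, 2 ligand genes that lie next to each other on chromosome 4, rose with both siRNAs. AREG encodes amphiregulin, a ligand that binds EGFR only and is a major autocrine growth factor of squamous cells. EREG encodes epiregulin, which binds EGFR and ERBB4. With si-RAB23-1 these were the members called, 2 of 9 higher and 0 lower. A call means a limma p under 0.05 after adjustment over the 14352 genes tested. In that comparison 15.4% of the genes tested were called, 8.13% higher and 7.26% lower. With si-RAB23-9 the members called were 2 higher and 2 lower, where 13.3% of genes were called, 7.56% higher and 5.69% lower. Some members without a call against si-NC had an unadjusted limma p under 0.05, and voom called each of them. Under si-RAB23-1 these were TGFA, which was higher, and ERBB3, which was lower. Under si-RAB23-9 they were BTC and ERBB3, both higher. The share of all genes that pass this unadjusted threshold is not given, so it serves as no more than a description. The median difference of the 9 genes was 0.16 on the log2 scale with each siRNA, and that of all genes 0.01. With si-RAB23-1 both libraries lay above both of si-NC for 5 members (31.7% of genes tested) and below for 1 (28.5%). With si-RAB23-9 these numbers were 5 (32.5%) and 3 (28.7%), so a lack of overlap with the control is common in this table. Both comparisons share the si-NC libraries, so their values below are set side by side and are not independent of each other.

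AREG (ENSG00000109321, chromosome 4, 74445134 to 74455009, plus strand, GRCh38) reached 123.4 and 112.4 FPKM under si-RAB23-1 and 90.3 and 92.5 under si-RAB23-9. Every treated library thus lay far above the control values of 54.5 and 52.4 FPKM, and the 3 groups did not overlap. The means were 2.21 and 1.71 times that of si-NC. On the log2(FPKM + 1) scale the difference from si-NC was 1.13 with si-RAB23-1 (SE 0.0519, 95% interval 1.00 to 1.25, limma adjusted p = 0.00184). It was 0.76 with si-RAB23-9 (95% interval 0.63 to 0.89, limma adjusted p = 0.00265). AREG ranked 21 from the top of 14352 genes by this difference with si-RAB23-1 and 106 with si-RAB23-9. The values rest on 1687 to 4117 reads per library, and both calls held with any 1 of the 6 libraries left out.

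EREG (ENSG00000124882, chromosome 4, 74365143 to 74388751, plus strand) went from 8.43 and 8.85 FPKM in the control libraries to 17.4 and 14.5 under si-RAB23-1 and to 13.0 and 12.9 under si-RAB23-9. The si-RAB23-1 libraries were the highest and the most spread, and neither siRNA overlapped the control. The ratios to the si-NC mean were 1.85 and 1.50, with log2 differences of 0.81 (95% interval 0.61 to 1.01, limma adjusted p = 0.00527) and 0.53 (95% interval 0.33 to 0.74, limma adjusted p = 0.0150). The call with si-RAB23-1 held without any 1 library. That with si-RAB23-9 was lost without any 1 of the 4 si-NC and si-RAB23-9 libraries, with differences of 0.50 to 0.57 and limma adjusted p up to 0.0911, and without the filter on low values (0.0562).

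Since these neighbours rose together, their promoters are shown, with that of EPGN, the next gene of the cluster, which was not called in any comparison. Each sequence, from RefSeq (GRCh38.p14, plus strand), runs 5′ to 3′ over 300 bases and ends 50 bases after the start of the gene. Capitals mark the cyclic AMP response element TGACGTCA and the TATA box TATAAA, searched on both strands. Of the 9 genes 8 had an entry in this promoter table.
AREG, chr4:74444886-74445185: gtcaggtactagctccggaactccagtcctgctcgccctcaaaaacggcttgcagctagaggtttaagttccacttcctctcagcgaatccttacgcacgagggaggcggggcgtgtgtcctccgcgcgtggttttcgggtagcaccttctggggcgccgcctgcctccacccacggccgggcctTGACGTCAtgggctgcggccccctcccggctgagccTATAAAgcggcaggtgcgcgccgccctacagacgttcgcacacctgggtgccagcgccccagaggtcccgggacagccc
EREG, chr4:74364895-74365194: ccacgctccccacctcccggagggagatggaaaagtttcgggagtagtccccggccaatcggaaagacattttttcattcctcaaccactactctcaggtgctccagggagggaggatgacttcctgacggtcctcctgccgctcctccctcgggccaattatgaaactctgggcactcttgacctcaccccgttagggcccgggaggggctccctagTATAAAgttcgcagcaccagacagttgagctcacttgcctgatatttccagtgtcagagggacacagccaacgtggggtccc
EPGN, chr4:74308220-74308519: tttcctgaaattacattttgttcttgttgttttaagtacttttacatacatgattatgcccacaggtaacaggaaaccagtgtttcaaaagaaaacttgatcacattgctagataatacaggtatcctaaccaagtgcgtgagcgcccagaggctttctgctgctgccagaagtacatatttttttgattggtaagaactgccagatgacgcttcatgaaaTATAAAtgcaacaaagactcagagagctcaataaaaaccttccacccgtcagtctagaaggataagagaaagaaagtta
All 3 hold TATAAA, at 29 bases before the start in AREG and EPGN and at 32 in EREG. That sequence occurs in 12.0% of the 27305 promoters of this length and in 5.13% of those of genes tested here. Shares for tested genes are over the 9079 promoters that matched 1 of the 14352 tested genes by symbol. The response element was found in AREG alone of the 8, at 65 bases before the start, and in 1.98% of all promoters and 3.37% of those of tested genes. The AP-1 sequence TGANTCA (7.76% of all promoters, 4.64% of those of tested genes) was not in these 3 windows. The TEAD sequence GGAATG (14.0% and 10.7%) was found in that of EREG, at 175 bases before the start. The first-listed promoters of EGFR, TGFA and HBEGF hold neither TATAAA nor the response element, but hold 3, 4 and 5 copies of the GC box GGGCGG. AREG holds 1 copy, at 9 bases before the start, and the box occurs in 44.6% of all promoters and 71.6% of those of tested genes. The second promoter listed for EGFR differs from the first, with 2 copies each of TATAAA and of the AP-1 sequence and no GC box, and the second of TGFA holds none of these sequences. A match is a description of letters, not a measured binding site.

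AREG, EREG, EPGN and BTC form a cluster, and on the log2(FPKM + 1) scale only the 2 in its middle were called against si-NC. That scale understates the change of low genes such as BTC. With si-RAB23-9 the BTC mean was 1.48 times the control, beside 1.50 times for EREG, and voom called BTC (0.57, limma voom adjusted p = 0.0348). The calls thus do not set BTC apart from EREG with that siRNA. Counted from the AREG start, EREG starts at -80.0 kb, EPGN at -136.7 kb and BTC, on the other strand, at 349.6 kb. Within 500 kb of these starts the table has 10 further protein-coding genes, of which 3 passed the filter of at least 1 FPKM in 2 libraries. CXCL3, which encodes a neutrophil chemokine, measured 0.698 and 0.438 FPKM in the control, 0.816 and 1.01 under si-RAB23-1 and 1.79 and 1.80 under si-RAB23-9. Its difference was called with si-RAB23-9 (0.84, limma adjusted p = 0.0173) and not with si-RAB23-1 (0.29, 0.211). It rests on 56 reads with si-NC and was lost without any 1 of the si-NC and si-RAB23-9 libraries (limma adjusted p up to 0.106). MTHFD2L, which encodes a mitochondrial folate enzyme and lies between CXCL3 and EPGN, differed by 0.03 and -0.02. PARM1 on the far side of BTC had means of 0.521 FPKM in the control, 0.290 under si-RAB23-1 and 1.16 under si-RAB23-9. Its differences from si-NC of -0.24 and 0.51 were not called. Between the siRNAs PARM1 (0.75, limma adjusted p = 0.0254) and CXCL3 (0.55, limma adjusted p = 0.0419) were called higher with si-RAB23-9. Whether these calls hold with 1 library left out is not given.

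**Figure D2:**
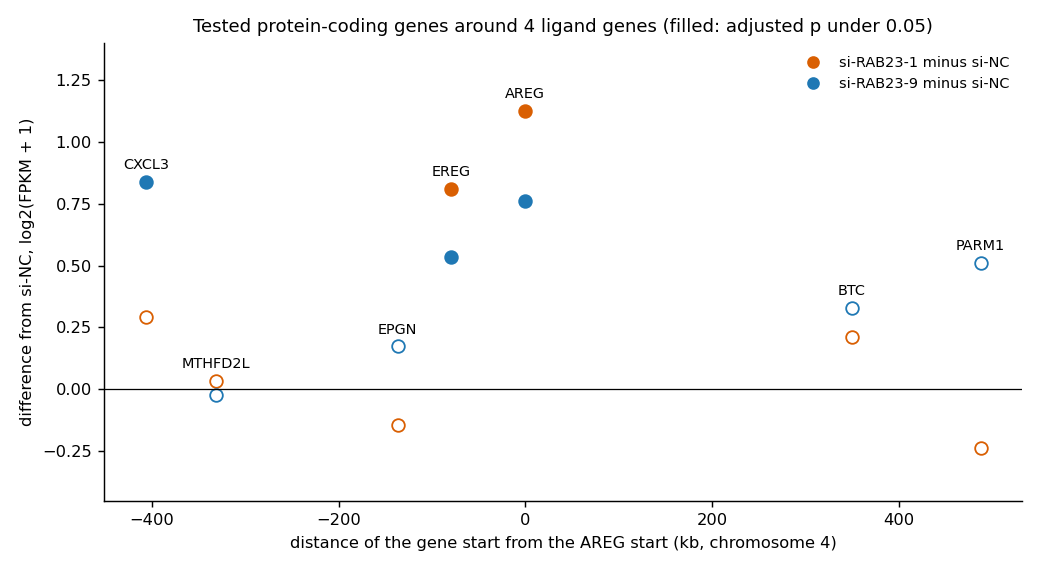
Difference from si-NC on the log2(FPKM + 1) scale for the 7 tested protein-coding genes around the ligand cluster, against the distance of each gene start from the AREG start in kb. AREG (1.13 and 0.76) and EREG (0.81 and 0.53) are called with both siRNAs, and EPGN and BTC on either side of them are not. BTC was called by voom with si-RAB23-9, and this scale understates the change of low genes.

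TGFA fell with si-RAB23-9 and was not called with si-RAB23-1. TGFA (ENSG00000163235, chromosome 2, 70447280 to 70554193, minus strand) encodes transforming growth factor alpha, the ligand first found in transformed cells. Its control values of 18.9 and 18.6 FPKM stood beside 22.7 and 20.4 under si-RAB23-1 and 15.6 and 15.5 under si-RAB23-9. The groups did not overlap, with si-RAB23-1 above the control and si-RAB23-9 below it. Of all genes tested 31.7% lay wholly above the control with si-RAB23-1 and 28.7% wholly below it with si-RAB23-9. The difference with si-RAB23-9 was -0.26 (95% interval -0.39 to -0.12, limma adjusted p = 0.0369), or 0.828 times the control mean. It was lost without any 1 of the si-NC and si-RAB23-9 libraries (differences of -0.27 to -0.24, limma adjusted p up to 0.165) and without the filter (0.0985). With si-RAB23-1 the difference was 0.19 (95% interval 0.05 to 0.32, limma adjusted p = 0.0786). That was called by voom on the recovered reads (0.16, limma voom adjusted p = 0.0243), with a mean of at least 5 FPKM and without si-RAB23-1 replicate 2 (0.26).

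An earlier analysis of these same libraries had singled out the 7-mer AAGTTAA because genes with it in their annotated 3′ UTR fell more often with si-RAB23-9. TGFA is the only one of the 9 genes whose GENCODE 29 3′ UTRs hold it, at 2 places, shown with the 7-mer in capitals and up to 10 bases on each side.
TGFA, chr2:70447461-70447467, minus strand: tttgtgtggtAAGTTAAttttgatttc
TGFA, chr2:70448509-70448515, minus strand: actccatttcAAGTTAAaaatgcatct
Of 10913 genes scanned 18.6% carried it, and 17.3% of the carriers were called lower with si-RAB23-9 against 4.21% of the others. Carriers had longer 3′ UTRs (median 3036 against 1104 bases). EGFR, which also fell with si-RAB23-9, holds no copy. It does hold GACATAT, a 7-mer singled out in the same way for si-RAB23-1, in the 3′ UTR of a short isoform. Of the carriers of GACATAT 25.6% were called lower with si-RAB23-1 against 7.11% of the others, while EGFR differed by 0.00 in that comparison. The carriers of GACATAT too had longer 3′ UTRs (median 3317.5 against 1243 bases). Both 7-mers were chosen for these differences in the same libraries, so the percentages restate that choice and add nothing in its favour. The siRNA sequences are not given in these sources, and whether these sites bear on TGFA was not tested.

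None of the other 3 ligands was called in any comparison. In the control HBEGF and BTC were low, above 26.3% and 8.40% of the genes tested, while EPGN lay near the middle, above 47.4%. HBEGF, the gene of heparin-binding EGF-like growth factor, measured 2.21 and 2.37 FPKM in the control, 2.78 and 2.58 under si-RAB23-1 and 2.19 and 2.05 under si-RAB23-9. Its differences from si-NC were 0.16 (95% interval -0.02 to 0.34) and -0.07 (95% interval -0.26 to 0.11). BTC, the gene of betacellulin, was at 1.13 FPKM in both control libraries, 1.52 and 1.41 under si-RAB23-1 and 1.75 and 1.60 under si-RAB23-9. All 4 treated libraries lay above the control, on 62 to 93 reads each. The differences were 0.21 (95% interval -0.02 to 0.44, limma adjusted p = 0.191) and 0.33 (95% interval 0.10 to 0.56, limma adjusted p = 0.0763). The second was called by voom on the recovered reads (0.57, limma voom adjusted p = 0.0348). EPGN, the gene of epigen, measured 5.13 and 4.79 FPKM in the control, 4.96 and 3.87 under si-RAB23-1 and 5.63 and 5.81 under si-RAB23-9. The si-RAB23-1 libraries straddled the lower control value. The differences of -0.15 (95% interval -0.39 to 0.10) and 0.17 (95% interval -0.07 to 0.42) were not called.

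Summed over the 6 ligand genes, transcript levels came to 90.4 and 88.1 FPKM in the control, 172.7 and 155.1 under si-RAB23-1 and 128.5 and 130.3 under si-RAB23-9. The group means were 1.84 and 1.45 times the control. Most of this gain was AREG: without it the control sum was 35.8 ± 0.0750 FPKM (SD, n = 2), against 46.0 ± 4.62 under si-RAB23-1 and 38.0 ± 0.261 under si-RAB23-9. AREG made up 60.3% and 59.4% of the ligand sum in the control libraries. Its share was 71.4% and 72.4% under si-RAB23-1 and 70.3% and 71.0% under si-RAB23-9. EREG kept a mean share of 9.69%, 9.72% and 10.0% in the 3 groups, while that of TGFA went from a mean of 21.0% to 13.1% and 12.0%. Under si-RAB23-1 the mean level of TGFA itself was 21.5 FPKM against 18.8 in the control, so its smaller share there came with the larger AREG level and not with a lower level of its own. The ratio of AREG to EGFR transcript was 0.335 and 0.323 in the control libraries. It was 0.738 and 0.707 under si-RAB23-1 and 0.664 and 0.666 under si-RAB23-9, so the treated groups lay apart from the control. With si-RAB23-9 both parts of this ratio differed, AREG at 1.71 and EGFR at 0.846 times the control mean. With si-RAB23-1 they were at 2.21 and 1.00 times. These sums and ratios are descriptions of transcript levels per gene length, with no test.

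**Figure D3:**
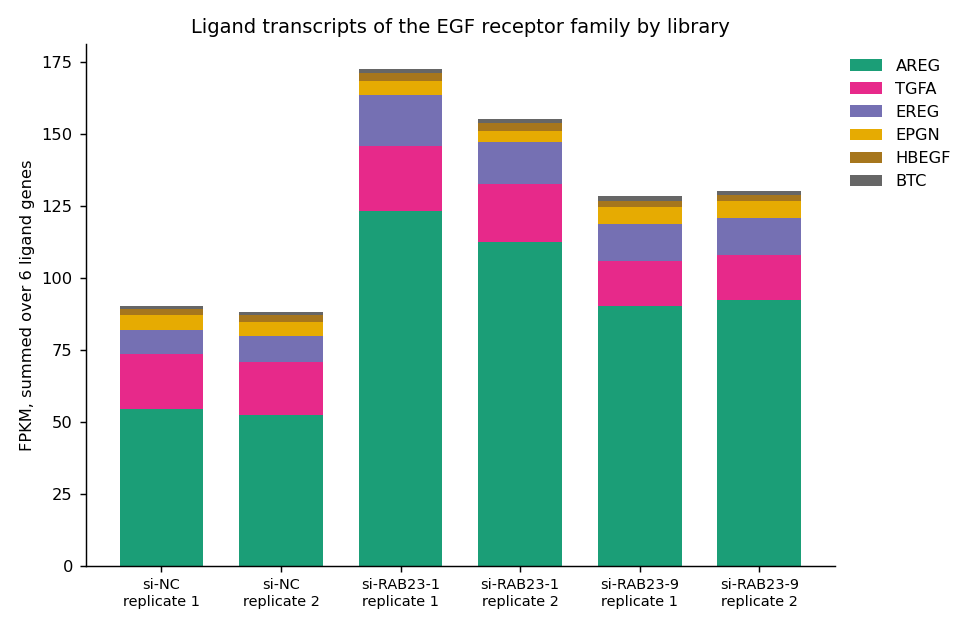
FPKM of the 6 ligand genes stacked for each library, with the vertical axis from 0. The stack is highest in the si-RAB23-1 libraries (172.7 and 155.1) and AREG is its largest part in all 6 libraries.

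Of the 3 receptor genes, EGFR fell with si-RAB23-9, and neither ERBB2 nor ERBB3 was called against si-NC. EGFR (ENSG00000146648, chromosome 7, 55019021 to 55211628, plus strand) encodes the receptor that binds all 6 of these ligands. Beside control values of 162.8 and 162.1 FPKM it stood at 167.3 and 158.8 under si-RAB23-1 and at 136.0 and 138.9 under si-RAB23-9. The si-RAB23-1 libraries lay on both sides of the control values, while both si-RAB23-9 libraries lay below all others. The difference with si-RAB23-9 was -0.24 (SE 0.0347, 95% interval -0.33 to -0.15, limma adjusted p = 0.0124), or 0.846 times the control mean. This call was lost without any 1 of the si-NC and si-RAB23-9 libraries (differences of -0.26 to -0.22, limma adjusted p up to 0.0911). With si-RAB23-1 the difference was 0.00 (95% interval -0.08 to 0.09, limma adjusted p = 0.942). EGFR-AS1, an antisense gene inside EGFR, was at 3.25 and 3.23 FPKM in the control and between 1.94 and 2.80 in the treated libraries. As the strandedness of the libraries is not given in these sources, its reads cannot be told apart from those of EGFR, which were many times more numerous.

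ERBB2 (ENSG00000141736, chromosome 17, 39687914 to 39730426, plus strand), the preferred partner of the other receptors, measured 15.0 and 15.8 FPKM in the control. Values of 14.7 and 15.2 under si-RAB23-1 and 15.3 and 16.3 under si-RAB23-9 meant that the groups overlapped. The differences of -0.04 (95% interval -0.16 to 0.09) and 0.03 (95% interval -0.09 to 0.16) were not called. MIEN1 and PGAP3 overlap ERBB2 on the other strand, and shared reads could have been assigned to either. ERBB3 (ENSG00000065361, chromosome 12, 56076799 to 56103505, plus strand), the neuregulin receptor that couples most directly to PI3K, measured 10.6 and 10.8 FPKM in the control. Under si-RAB23-1 it lay below, at 9.66 and 10.1, and under si-RAB23-9 above, at 12.0 and 12.2. Its differences were -0.10 (95% interval -0.21 to -0.0013, limma adjusted p = 0.154) and 0.16 (95% interval 0.06 to 0.27, limma adjusted p = 0.0576). Voom on the recovered reads called both, at -0.14 (limma voom adjusted p = 0.0473) and 0.18 (0.0119). With a mean of at least 5 FPKM the increase with si-RAB23-9 was called as well.

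Set against each other directly, the siRNAs differed for 4 of the 9 genes, with 1 higher and 3 lower with si-RAB23-9. In this comparison 21% of the genes tested were called, 11.1% higher and 9.89% lower. AREG was lower with si-RAB23-9 than with si-RAB23-1 by a difference of -0.36 (95% interval -0.49 to -0.23, limma adjusted p = 0.00945). TGFA (-0.44, 95% interval -0.58 to -0.31, limma adjusted p = 0.00656) and EGFR (-0.24, 95% interval -0.33 to -0.16, limma adjusted p = 0.00915) were lower as well, and ERBB3 was higher (0.27, 95% interval 0.16 to 0.37, limma adjusted p = 0.0118). The calls of AREG, EGFR and ERBB3 were lost when either si-RAB23-9 library was left out (the highest limma adjusted p were 0.0625, 0.0671 and 0.0805), and that of TGFA without si-RAB23-9 replicate 2 (0.0514). For EREG the difference of -0.28 did not pass the test (95% interval -0.48 to -0.07, limma adjusted p = 0.0689). Nor did those of EPGN (0.32, limma adjusted p = 0.0761) and HBEGF (-0.24, limma adjusted p = 0.0742). EREG and EPGN were called by voom (limma voom adjusted p = 0.00294 and 0.0171). EREG, lower with si-RAB23-9, and EPGN, higher with it, were also called with a mean of at least 5 FPKM.

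**Figure D4:**
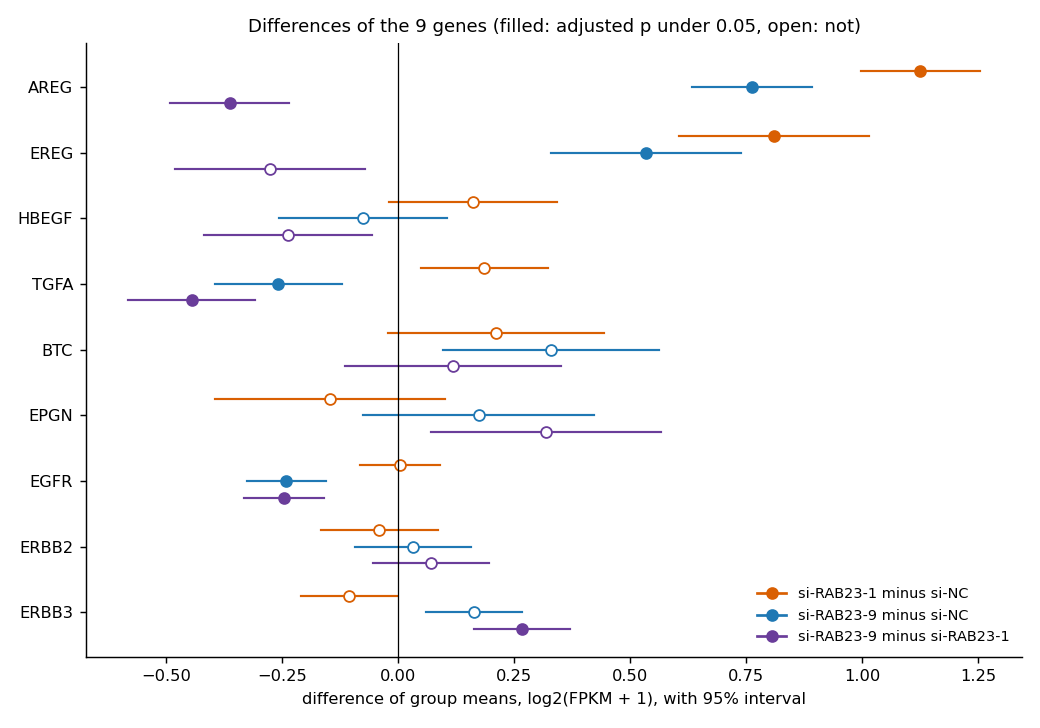
Difference of group means on the log2(FPKM + 1) scale with 95% intervals for the 9 genes in 3 comparisons; filled points passed an adjusted p of 0.05 and open points did not. AREG and EREG lie to the right for both siRNAs against si-NC, while TGFA and EGFR lie to the left with si-RAB23-9.

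The profiles closest to those of the called members were found by the smallest distance over the 6 libraries of log2(FPKM + 1), each gene taken relative to its si-NC mean. For AREG these were MIR181B2, HABP4 and MARCKS. MIR181B2 had 0 reads in the control and 4 and 2 in the treated groups, so its place in this list carries no weight. HABP4, which encodes a hyaluronan- and RNA-binding protein, differed by 0.96 and 0.71, and the protein kinase C substrate gene MARCKS by 1.17 and 0.59. Closest to EREG were PRDX4, the gene of a peroxiredoxin (0.71 and 0.57), the antisense gene AC010275.1 (0.81 and 0.52) and the zinc finger gene ZNF845 (0.71 and 0.61). Closest to EGFR were DAZAP2 (0.01 and -0.25), ACTR1A, which encodes a dynactin subunit (0.02 and -0.24), and the ribosomal protein gene RPL5 (0.03 and -0.25). Closest to TGFA were the myosin light chain gene MYL12B (0.16 and -0.27), ANKRD33B (0.21 and -0.28) and CRIM1 (0.16 and -0.23). These are descriptions over 6 libraries, and how close the nearest profiles of other genes lie was not measured.

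The remaining ligands and receptor of the family were low. NRG1, the gene of neuregulin 1, a ligand of ERBB3 and ERBB4, measured 0.536 and 0.578 FPKM in the control. Under si-RAB23-1 it was 1.13 and 1.10 and under si-RAB23-9 0.645 and 0.721, so the si-RAB23-1 libraries stood above the other 4. Its difference with si-RAB23-1 was 0.44 (limma adjusted p = 0.0776), and on the recovered reads voom gave 0.98 and called it (limma voom adjusted p = 2.38e-06). NRG4, a ligand of ERBB4, measured 0.783 and 0.773 FPKM in the control, 1.44 and 1.02 under si-RAB23-1 and 0.884 and 0.963 under si-RAB23-9. Its differences of 0.32 and 0.11 were not called, and voom called the first (0.57, limma voom adjusted p = 0.0228). EGF lay between 0.108 and 0.239 FPKM, NRG2 between 0.0668 and 0.125, and the fourth receptor ERBB4 between 0.0354 and 0.0974. NRG3 was listed at 0 in all libraries.

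Other genes of the pathway moved in both directions, and the medians of the 4 lists below lay between -0.02 and 0.05, where those of all genes were 0.01 with each siRNA. Among 14 tested genes of ligand shedding and maturation, 2 rose and 4 fell with si-RAB23-1 (15.4% of all genes called), and 4 rose and 2 fell with si-RAB23-9 (13.3%). The transcript of the main sheddase ADAM17 was not called (0.05 and 0.01). ADAM10, which releases EGF and BTC, fell by 0.44 and by 0.28 on the log2 scale. With si-RAB23-1 RHBDF2, which encodes an iRhom that escorts ADAM17, rose by 0.40, while FRMD8, which encodes an iRhom-binding protein, fell by 0.39 and the tetraspanin gene CD9 by 0.35. With si-RAB23-9 the metalloprotease genes ADAM19 and ADAM15 rose by 0.86 and 0.25. TIMP3, the gene of a metalloprotease inhibitor that blocks ADAM17, rose by 0.72 with si-RAB23-9. Under si-RAB23-1 TIMP3 was higher too, at 8.34 and 9.20 FPKM against 6.47 and 6.86 in the control. In these lists up to 4 called genes are named per siRNA, so a gene named for 1 siRNA may have moved with the other as well.

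Of 30 tested genes of receptor-proximal signalling, 4 rose and 4 fell with si-RAB23-1, and 6 rose and 5 fell with si-RAB23-9, against 15.4% and 13.3% of all genes called. PIK3CB, which encodes a PI3K catalytic subunit, fell by 0.42 and by 0.47. NRAS rose by 0.36 with si-RAB23-1 and fell by 0.46 with si-RAB23-9, a difference of -0.82 between the siRNAs (limma adjusted p = 0.00222). With si-RAB23-1 the adaptor gene NCK1 fell by 0.47 and STAT3 rose by 0.31. With si-RAB23-9 GRB2, which encodes the adaptor that links the receptors to RAS, fell by 0.38 and the kinase gene AKT1 rose by 0.44.

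Among 30 tested genes of receptor inhibition and endocytic downregulation, 6 rose and 3 fell with si-RAB23-1, and 2 rose and 6 fell with si-RAB23-9, where 7.56% of all genes were called higher and 5.69% lower. The shares with si-RAB23-1 were 8.13% and 7.26%. STAM2, which encodes an endosomal sorting protein, fell by 0.44 and by 0.43, and RIN1, which encodes an exchange factor of RAB5, by 0.41 with each. LRIG3, the gene of a leucine-rich repeat membrane protein, rose by 0.34 with si-RAB23-1, and its mean was 1.31 times the control with each siRNA. SOCS5, a suppressor of receptor signalling, fell by 0.48 with si-RAB23-1. ERRFI1, the gene of the feedback inhibitor MIG6 that blocks the EGFR kinase, fell by 0.39 with si-RAB23-9, while the clathrin adaptor gene EPN1 rose by 0.35.

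Of 20 genes known as transcriptional targets of ERK, 7 rose and 5 fell with si-RAB23-1, and 4 rose and 4 fell with si-RAB23-9, again against 15.4% and 13.3% of all genes called in either direction. MYC rose by 1.03 and 0.51 and JUN by 0.53 and 0.41, while CCND1, the cyclin D1 gene, fell by 0.94 and by 0.56. The receptor kinase gene EPHA2 fell by 0.93 with si-RAB23-1, and SPRY4, which encodes a feedback inhibitor of the cascade, fell by 0.47 with si-RAB23-9. Of the 16 calls named in these 4 lists for si-RAB23-1, those of MYC, CCND1, EPHA2, JUN, FRMD8 and PIK3CB held without any 1 library. For si-RAB23-9 those of CCND1, ADAM19, TIMP3, PIK3CB and GRB2 held, also of 16. The highest limma adjusted p of the calls lost were 0.114 and 0.146. With si-RAB23-1 the calls of ADAM10, CD9, SOCS5, STAM2 and LRIG3 were lost without either si-NC library, RIN1 without any 1 of the 4 libraries compared, and NRAS without either si-NC library or si-RAB23-1 replicate 1. With si-RAB23-9 those of MYC, SPRY4, ADAM10, ADAM15, STAM2, RIN1, ERRFI1, EPN1 and NRAS were lost without any 1 of the 4 compared, and AKT1 without si-NC replicate 2 or si-RAB23-9 replicate 2. JUN with si-RAB23-9 and RHBDF2 and STAT3 with si-RAB23-1 were lost only without si-NC replicate 2, and NCK1 only without si-NC replicate 1.

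**Figure D5:**
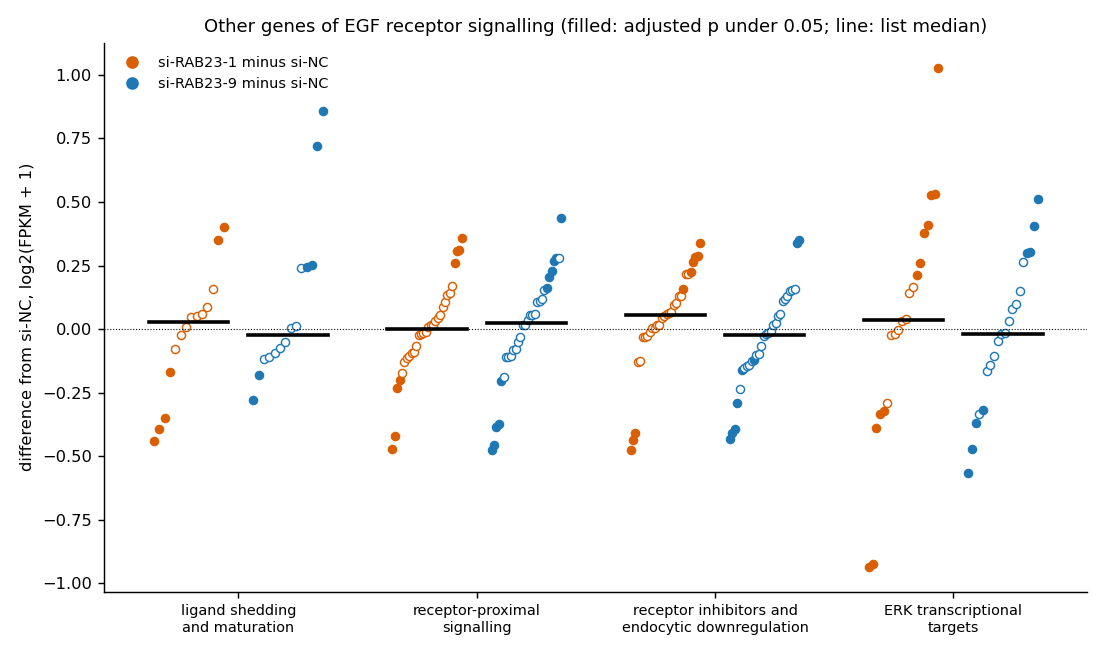
Difference from si-NC on the log2(FPKM + 1) scale for each tested gene of 4 lists of EGF receptor signalling; filled points passed an adjusted p of 0.05 and horizontal lines are list medians. Called genes lie on both sides of 0 in every list and with both siRNAs, and the medians lie near 0.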

How the data were processed

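RNA-seq libraries of transfected KYSE30 cells (6, in 3 groups of 2 by their titles) were analysed from 1 gene table. Its values are FPKM as the authors deposited them, 1 column per library. Per the submitters' processing notes, the tools were RSEM 1.2.29, STAR 2.5.1b, edgeR 3.8.5, Trimmomatic 0.36 and FastQC, with no roles given, and the build hg19. The start and end of all 58735 genes equal those of GENCODE 29 on GRCh38, which is the build used for coordinates. Date-like symbols (27) were resolved by gene ID. Multiplied by gene length, 100% of values above 0 gave whole reads (tolerance 0.01 read) at 1 scale per library.

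The 14352 genes that reached 1 FPKM in 2 or more libraries were tested on log2(FPKM + 1) with limma 3.58.1 in R 4.3.3. The model had 1 mean per group over all 6 libraries (3 residual degrees of freedom), with eBayes and a mean-variance trend. Tests were two-sided, with Benjamini-Hochberg adjustment over all genes tested and a threshold of 0.05. This scale understates the change of low genes. The code was also run on simulated independent libraries with the same spread setting for all genes. That run cannot show how far the calls hold in these data.

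The named genes were RAB23, all 9 members, the other family genes, up to 4 called genes of largest change per list and comparison, 3 closest profiles per called member and tested neighbours within 500 kb. Members and lists were chosen with earlier results of these data known, so counts over them are descriptions. Alternatives were pseudocounts of 0.1 and 0.5, no filter, a mean FPKM of at least 5, quantile and median-of-ratios scaling, only the 4 libraries compared, a replicate block, limma voom on the recovered reads, and each library left out.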

Additional observations from a re-analysis of the deposited data

How the results depend on the processing

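AREG kept both of its calls against si-NC, and EREG its call with si-RAB23-1, under all 15 alternatives. Leaving out 1 library at a time, the number of members called higher was 2 to 3 with si-RAB23-1 and 1 to 2 with si-RAB23-9, and 0 to 2 for si-RAB23-9 against si-RAB23-1. The number called lower was 0, 0 to 2 and 0 to 4 in the same order. With si-RAB23-9 the count was 1 higher and 1 lower with no filter and 4 higher by voom. Voom called 1 member lower with si-RAB23-1. Of the siRNAs against each other, 2 members were higher by voom and with a mean FPKM of at least 5. The cause was not tested. Differences that lay near 0 turned sign. EGFR with si-RAB23-1 came to -0.0458 under quantile normalization, -0.0029 with median-of-ratios scaling, -0.0255 by voom and -0.0323 to 0.0419 with 1 library left out. ERBB2 with si-RAB23-9 came to -0.0047 under quantile normalization and -0.0137 to 0.0771 with 1 library left out, and EPGN with si-RAB23-1 to -0.29 to 8.5e-06 likewise.

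Over all genes, the counts with si-RAB23-1 (1167 higher and 1042 lower) ranged over 173 to 954 and 165 to 866 with 1 library left out. They were 543 and 506 with no filter and 1622 and 2178 by voom. With si-RAB23-9 (1085 and 817) the ranges were 143 to 1173 and 115 to 902, with 552 and 431 with no filter and 1872 and 1536 by voom. For the siRNAs against each other (1599 and 1420) they were 375 to 1376 and 330 to 1315, with 771 and 687 with no filter and 2695 and 1798 by voom. With only the 4 libraries compared they were 633 and 601 for si-RAB23-1 and 1036 and 883 between the siRNAs. Called genes of the shedding, proximal, inhibitor and ERK target lists numbered 6, 8, 9 and 12 for si-RAB23-1, and 1 to 7, 2 to 8, 0 to 7 and 4 to 9 with 1 library left out. For si-RAB23-9 (6, 11, 8 and 8) the ranges were 2 to 6, 3 to 12, 0 to 8 and 1 to 9, with 3, 5, 2 and 5 with no filter. With no filter si-RAB23-1 had 4 called genes of the proximal and 4 of the inhibitor list, and with only the 4 libraries compared 5 of the proximal list. Same-numbered libraries did not deviate together (correlations of -0.06, -0.02 and 0.06 between groups over 14352 genes). Whether they share a culture or a batch is not stated, and these correlations cannot show it. With the replicate block, no member changed its call: 2 higher and 0 lower under si-RAB23-1, 2 and 2 under si-RAB23-9, and 1 and 3 between the siRNAs. Among the members BTC had the fewest reads (62 to 93 per library), which limits its precision. HBEGF and BTC have no value at a mean FPKM of at least 5.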
